A study of Homo sapiens with 24 samples.

Results

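The 30 genes described here are targets of the tumor suppressor p53, and their RNA was followed in A549 cells treated with dexamethasone (dex) or with its vehicle ethanol (EtOH). A549 is an established cell line from a human lung adenocarcinoma and carries wild-type p53. The genes were listed by symbol as known targets, with no threshold on a measured value but with earlier results of these data known, and their transcript counts were summed per gene. All 30 were among the 33126 genes with a matched transcript in the table, and all 30 were among the 15337 genes with enough counts to be tested. Dex is a synthetic glucocorticoid (GC) that activates the glucocorticoid receptor (GR). Cells received 100 nM dex in EtOH or an equal volume of EtOH (0.02% of the medium), and poly-A RNA was sequenced after 1, 3, 5, 7, 9 or 11 h, with 2 libraries for each treatment and time and 24 in all. By their labels, all 12 groups thus came from the same line, with no other agent or allele, and differed only in dex and in time. Batches of culture or library are not named in the labels used here. The labels number the libraries as biological replicates without saying how cultures were separated, so p-values measure only the spread between these libraries.

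p53 is a transcription factor that is held at low levels by the ubiquitin ligase MDM2 and that accumulates after DNA damage and other stresses. Its targets halt the cell cycle, repair DNA, adjust metabolism, trigger apoptosis or, as MDM2 itself does, turn p53 off again. Many of them also answer to other factors, and several, such as CDKN1A and GADD45A, are known to be raised by GCs or growth arrest signals in cells where p53 is not active. These genes are therefore read here as a group of RNAs and not as a measure of p53 activity, which was not measured.

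Each library held between 6708864 and 13748598 counts (median 10109393.5). Values are given as CPM, counts scaled to a common library size by the TMM method, and each time point was tested by itself with edgeR's quasi-likelihood test and Benjamini-Hochberg adjustment over all genes tested. A gene was called at an adjusted p of at most 0.1, the limit on false discoveries that the study used. The 8 GC targets used to check the labels were all higher with dex from 3 h on, and at 1 h 7 of 8 were. Of the 5 epithelial markers, the keratins KRT8 and KRT18 had at least 14552 and 14655 counts in every library, the cadherin CDH1 at least 242, KRT19 at least 70 and EPCAM at least 31, whereas the leukocyte gene PTPRC had at most 3, the endothelial gene VWF at most 1 and the T cell gene CD3E 0. Of the 12 markers of other cells, 11 were in the table, and their summed level ran from 14.7 to 24.15 CPM with EtOH and from 8.97 to 28.1 CPM with dex. COL1A1, a collagen gene that holds most of that sum, was called higher at 3 h (log2 fold change 0.57) and lower at 5, 7 and 9 h (-1.20, -1.03 and -1.35). KRT8 and KRT18 were higher with dex from 3 h on (at 7 h by log2 fold changes of 1.45 and 1.15) and CDH1 at 5 and 7 h (0.65 and 0.55). EPCAM was lower at 5, 7 and 9 h (-0.84, -0.95 and -0.70) and KRT19 at 5 and 9 h (-0.56 and -1.02). The part of these markers in the results on p53 targets was not tested. CDKN2A, which encodes the MDM2 inhibitor ARF and is deleted in A549, had 0 counts in all 24 libraries. The spread between replicates was smallest at 7 h (biological coefficient of variation 6.49%) and largest at 11 h (12.7%).

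In EtOH, the levels of the 30 genes spanned a ratio of 141 from the highest to the lowest. Levels can be compared between genes only per length, so each transcript's CPM was divided by its length in kilobases and summed per gene. PLK2, a polo-like kinase, was highest at a median of 159 CPM per kilobase over the 12 EtOH libraries, with a range of 130 to 174. TRIAP1, a small inhibitor of apoptosis, followed at a median of 125, the cyclin gene CCNG1 at 83.7, the apoptosis effector gene BAX at 72.2 and MDM2 at 63.55 CPM per kilobase. CDKN1A, TP53I3 and DDB2 lay next to each other at 38.2, 37.8 and 37.4 CPM per kilobase, and GADD45A lay at 17.5. The lowest were PLK3 at 3.67, GDF15 at 2.38 and BBC3 at 1.13 CPM per kilobase. Of the 29 pairs of neighbours in this order, 27 had ranges over the 12 libraries that overlapped. The exceptions were TRIAP1 above CCNG1 and GDF15 above BBC3. The median of all genes tested was 6.96 CPM per kilobase, and 21 of the 30 genes lay above it.

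**Figure D1:**
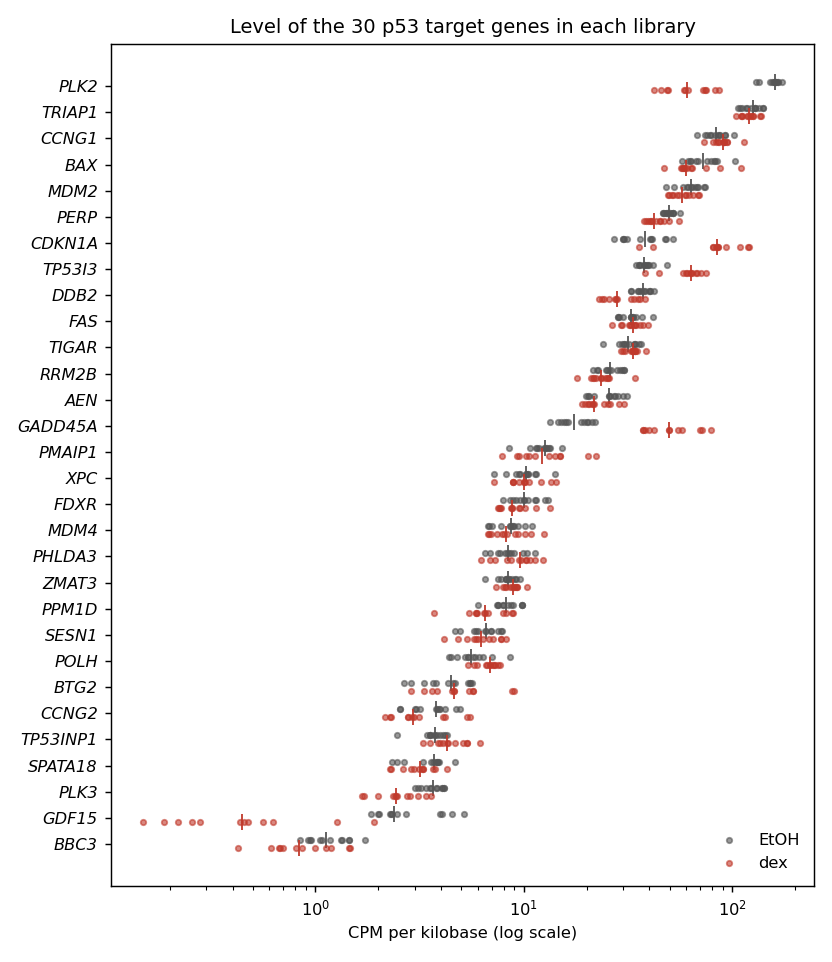
Level of each of the 30 p53 target genes per length (CPM per kilobase, log scale), with 1 point for each of the 12 EtOH libraries (grey) and the 12 dex libraries (red) and a tick at each median. Genes are ordered by their EtOH median, from PLK2 at 159 to BBC3 at 1.13, and the dex points of PLK2, and all but 1 of GDF15, lie to the left of the EtOH points while those of GADD45A lie to the right.

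With dex, 22 of the 30 genes were called at 1 or more time points, 7 of them only higher, 12 only lower and 3 in both directions at different times. Over all genes tested the share called at 1 or more time points was 44.4%. At 1 h, 2 of the 30 were higher (0.639% of all genes tested were) and 2 lower (0.417%). At 3 h, 5 were higher (8.42% of all genes) and 4 lower (5.65%). At 5 h, 5 were higher (12.4%) and 10 lower (12.6%), so that a share of 33.3% of the set was lower, and the median log2 fold change of the 30 was -0.10 against 0.01 over all genes. At 7 h, 4 were higher (14.7%) and 8 lower (13.5%), a share of 26.7%, with a median of -0.13 against 0.00. At 9 h, 5 were higher (10.8%) and 5 lower (8.95%), and at 11 h, 3 were higher (5.8%) and 3 lower (3.33%). As shares of the set, the calls at 1 h were 6.67% in each direction, against the 0.639% and 0.417% above. At 3 h they were 16.7% higher and 13.3% lower, at 9 h 16.7% in each direction and at 11 h 10.0% in each. The higher calls were 16.7% at 5 h and 13.3% at 7 h. The distance of these shares from those of all genes was not tested. The total of 4 calls at 1 h became 2 without EtOH replicate 2 at that time. The 12 at 7 h became 7 without dex replicate 1, without dex replicate 2 or without EtOH replicate 1, and the 10 at 9 h became 6 without dex replicate 1.

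Calls at neighbouring times were also read together, and 10 of the 30 genes were called at 2 or more consecutive time points in the same direction, against 20.2% of all genes tested. CDKN1A, GADD45A, TP53I3 and TP53INP1 were higher, and PLK2, PLK3, GDF15, DDB2, PERP and PPM1D were lower. The time of the dex effect was tested with the interaction of treatment and time over all 24 libraries, which called 10 of the 30 genes, against 15.4% of all genes tested.

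**Figure D2:**
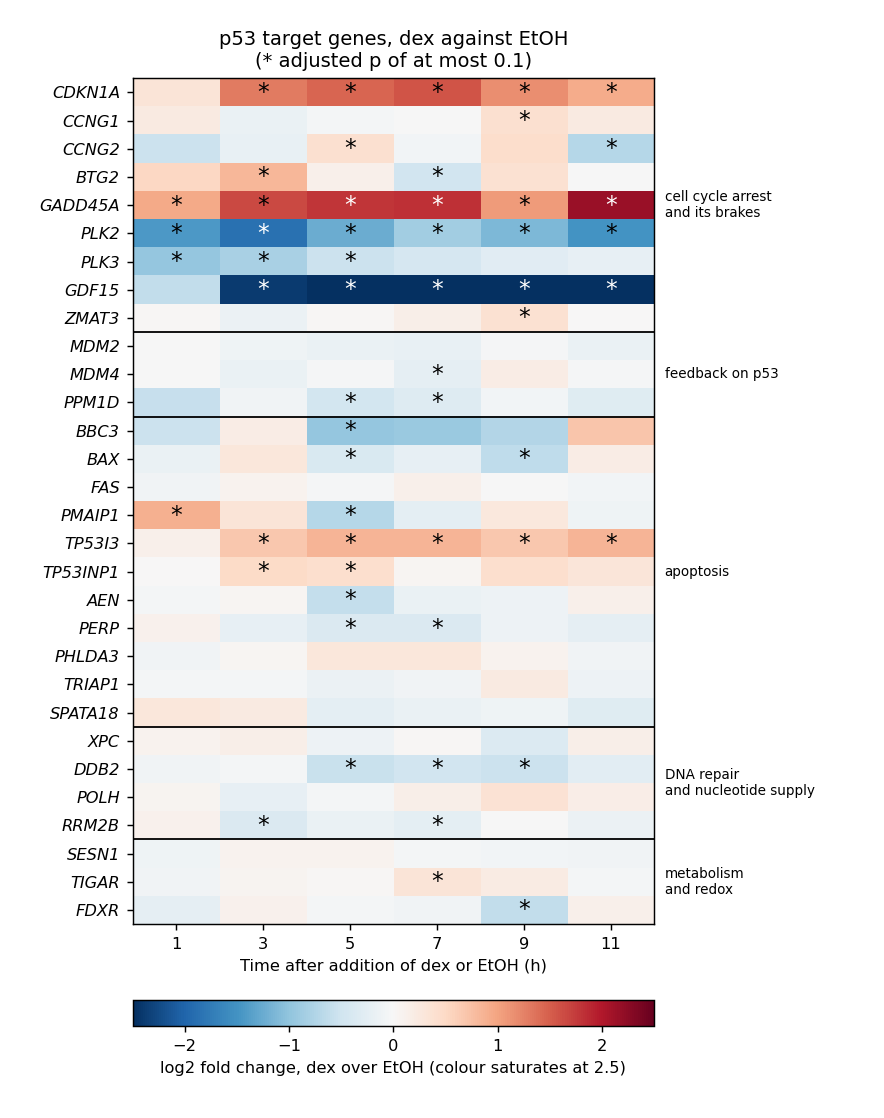
Log2 fold change of dex over EtOH (colour, 2 libraries against 2) for the 30 genes at 6 time points, grouped by role, with a star where the adjusted p was at most 0.1. GADD45A, from 0.95 at 1 h to 2.15 at 11 h, and CDKN1A form the darkest red rows, GDF15 and PLK2 the darkest blue rows, and most other rows carry a star at 1 or 2 times or at none.

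The bases before a RefSeq start of transcription are shown for 4 of the genes called at consecutive times, as the sequence next to which the changes below were measured. For CDKN1A this start lies inside the span given below for the gene, not at its upstream end. A table of RefSeq promoters on GRCh38.p14 matched 26 of the 30 genes, and the 250 bases before each start were searched on both strands. The stretches shown lie in no exon of GENCODE release 29 and run 5′ to 3′ on the strand of the gene, with capitals for any letters found. CDKN1A is shown at chr6:36678560-36678657 (plus strand), PLK2 at chr5:58460261-58460336 (minus), DDB2 at chr11:47214204-47214453 (plus), with 3 CCAAT boxes in capitals, and PERP at chr6:138107512-138107669 (minus), with 1 AP-1 site in capitals.
CDKN1A: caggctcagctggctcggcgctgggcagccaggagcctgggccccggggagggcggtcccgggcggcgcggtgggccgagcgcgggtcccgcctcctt
PLK2: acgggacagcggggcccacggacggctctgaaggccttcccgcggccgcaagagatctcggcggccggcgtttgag
DDB2: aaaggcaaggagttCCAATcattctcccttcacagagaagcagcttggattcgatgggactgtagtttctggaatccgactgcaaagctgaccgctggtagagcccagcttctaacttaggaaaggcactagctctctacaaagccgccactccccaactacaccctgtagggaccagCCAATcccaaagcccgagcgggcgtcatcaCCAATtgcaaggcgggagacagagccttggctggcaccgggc
PERP: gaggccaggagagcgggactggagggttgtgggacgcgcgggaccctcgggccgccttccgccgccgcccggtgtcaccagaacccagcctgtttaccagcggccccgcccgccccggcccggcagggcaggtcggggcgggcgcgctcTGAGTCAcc

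The p53 half-site, the 10-letter consensus of which p53 binds a pair, was found before a start of 5 of the 26 genes (PLK2, SESN1, FAS, AEN and FDXR), against 6.8% of the 27303 genes in the table. These sites are shown with up to 10 bases on each side and the half-site in capitals. They lie at chr5:58460199-58460228 (PLK2, minus strand), chr6:109009018-109009047 (SESN1, minus), chr10:88991299-88991328 (FAS, plus), chr15:88621296-88621325 (AEN, plus) and chr17:74872995-74873015 (FDXR, minus). All but that of SESN1 fall in an exon of GENCODE release 29, whose starts lie further upstream than those of the table.
PLK2: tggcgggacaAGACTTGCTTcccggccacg
SESN1: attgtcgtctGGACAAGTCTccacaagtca
FAS: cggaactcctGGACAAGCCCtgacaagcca
AEN: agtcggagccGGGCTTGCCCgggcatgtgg
FDXR: gggcaggagcGGGCTTGCCCt

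Of these 5 genes, PLK2 was lower with dex at every time, AEN was lower at 5 h, FDXR was lower at 9 h, and FAS and SESN1 were called at no time. The GR half-site TGTTCT was found in FAS and XPC, 2 of the 26 genes, against 14.8% of all genes, and the full GR site, a pair of half-sites facing each other across 3 bases, in 0 of the 26, against 1 of the 27303 genes. The AP-1 site TGANTCA was found in BBC3, FAS, MDM2 and PERP (8.06% of all genes hold it) and the CCAAT box in 13 of the 26 (37% of all genes). A match describes letters in this window and is no measured site, and the absence of a match says nothing of sites elsewhere.

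The group listed under cell cycle arrest and its brakes held CDKN1A, GADD45A, PLK2, PLK3, BTG2, CCNG1, CCNG2, ZMAT3 and the cytokine gene GDF15. All 9 were called at 1 or more times (44.4% of all genes tested were). Of these, 4 were called only higher (CCNG1 and ZMAT3 at 9 h alone), 3 only lower and 2 in both directions. CDKN1A encodes p21, an inhibitor of cyclin-dependent kinases and the best known p53 target (chromosome 6, 36676460 to 36687339, GRCh38). At 7 h its level was 174 and 172 CPM in the dex libraries and 56.4 and 61.1 CPM in the EtOH libraries. Both dex libraries lay well above both EtOH libraries, with a log2 fold change of 1.57 (SE 0.08, adjusted p = 2.29e-16), a 2.96-fold higher mean. The highest dex level came earlier, at 5 h, with 241 and 236 CPM against 93.3 and 81.8 with EtOH. At 1 h the levels were 69.0 and 80.6 CPM with dex and 58.6 and 60.3 with EtOH, which did not overlap but did not pass the test (log2 fold change 0.32, adjusted p = 0.527). The log2 fold change was 1.29 at 3 h and 0.92 at 11 h, when the EtOH level had reached 102 and 94.6 CPM. The effect differed between times (adjusted p = 5.39e-05 for the interaction). On the opposite strand, 146 of its 3050 exonic bases overlap the noncoding gene DINOL, and the use of strand in counting is not stated.

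GADD45A, which encodes a stress protein that binds p21 and cyclin-dependent kinase CDK1 (chromosome 1, 67685061 to 67688338), was higher with dex at every time. At 11 h its level was 92.5 and 57.25 CPM with dex and 17.8 and 16.4 CPM with EtOH. The dex libraries differed from each other by more than the whole EtOH level and still lay above it (log2 fold change 2.15, SE 0.22, adjusted p = 4.41e-05). At 1 h, when few genes had changed, it was at 44.8 and 46.2 CPM with dex and at 25.2 and 21.9 with EtOH (log2 fold change 0.95, adjusted p = 0.000818). That call at 1 h was lost when any 1 of the 4 libraries was left out. Replicates were also far apart at 5 h, with 45.7 and 80.7 CPM in the dex libraries against 17.5 and 19.15 with EtOH. The interaction with time (adjusted p = 0.0859) was lost in 19 of 29 other settings.

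PLK2 and PLK3 encode polo-like kinases that act at checkpoints and in the stress response, and both were lower. PLK2 (chromosome 5, 58453982 to 58460260) was called at every time. At 3 h it was at 124 and 135 CPM with dex and at 469 and 473 CPM with EtOH, the lowest point of the dex series (log2 fold change -1.86, SE 0.10, adjusted p = 1.26e-13). The fall was already present at 1 h, with 144 and 144 CPM against 396 and 383.5. By 7 h the dex level had returned to 244 and 254 CPM against 450 and 470 (log2 fold change -0.88), and at 11 h it was down again at 175.5 and 174 against 514 and 489 (-1.50). The size of the effect differed between times (adjusted p = 3.14e-05). PLK3 (chromosome 1, 44800225 to 44805990) was called at 1, 3 and 5 h. At 1 h it was at 4.15 and 4.26 CPM with dex and at 8.465 and 7.98 CPM with EtOH (log2 fold change -0.97, SE 0.24, adjusted p = 0.0662). Its log2 fold change was then -0.81 at 3 h, -0.54 at 5 h and -0.21 at 11 h, where dex (8.915 and 8.435 CPM) and EtOH (10.1 and 10.3 CPM) did not overlap and the test was not passed. DESeq2 did not call PLK3 at 1 or 5 h, and each of its 3 calls was lost without at least 1 of the libraries.

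GDF15 encodes a secreted stress cytokine of the TGF-beta family (chromosome 19, 18374731 to 18389176), and its few counts fell from 3 h on. At 9 h the dex libraries held 2 and 3 counts (0.285 and 0.224 CPM) and the EtOH libraries 26 and 44 (2.32 and 4.40 CPM). The EtOH level was 13.45 times the dex level, with a 95% interval from counting alone of 5.50 to 42.7. The fitted log2 fold change at that time was -3.68 (SE 0.57, adjusted p = 0.000682) and depends on the prior count that edgeR adds. The ratio was 5.37 at 3 h (interval 2.81 to 11.3), 10.4 at 7 h (3.81 to 39.9), when 1 dex library held 1 count, and 11.9 at 11 h (6.17 to 25.6). At 1 h the dex libraries held 15 and 14 counts and the EtOH libraries 30 and 38, and the gene was not called. The interaction with time was called (adjusted p = 0.00917).

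**Figure D3:**
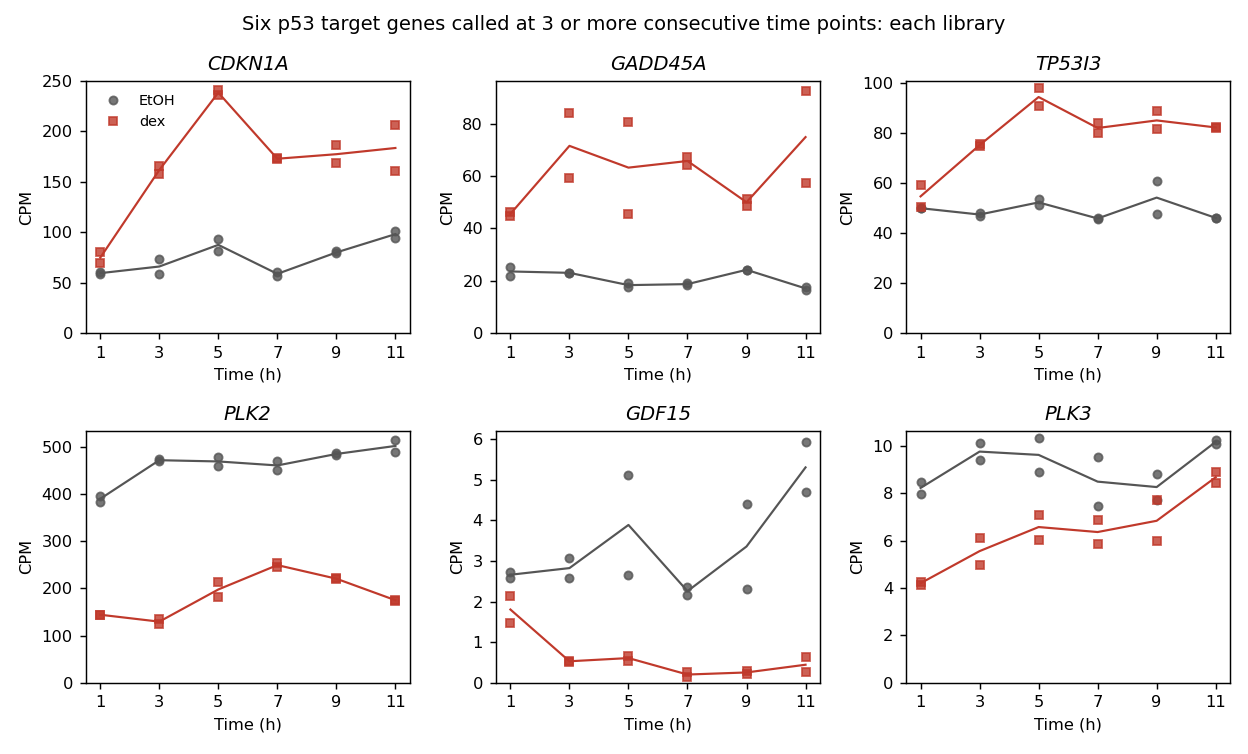
CPM of 6 of the genes called at 3 or more consecutive times against time in hours, with 1 point for each library (EtOH grey circles, dex red squares) and lines through the means of 2. CDKN1A rises to 241 and 236 CPM with dex at 5 h, PLK2 is lowest at 3 h, and the PLK3 groups come closer to each other with time.

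The antiproliferative gene BTG2 and the cyclin gene CCNG2, whose product slows the cell cycle, were called in opposite directions at different times. BTG2 was at 20.6 and 19.8 CPM with dex and 10.4 and 12.3 with EtOH at 3 h (log2 fold change 0.82, adjusted p = 0.000669). At 7 h it was at 6.78 and 7.39 CPM with dex and 11.1 and 8.63 with EtOH (-0.48, adjusted p = 0.0792). DESeq2 did not call the fall at 7 h, and 3 of the 4 libraries were each needed for it. The interaction of BTG2 with time was called in all 29 other settings run (adjusted p = 0.00874 as tested first). CCNG2 was at 15.3 and 16.5 CPM with dex against 11.1 and 12.8 with EtOH at 5 h (log2 fold change 0.41, adjusted p = 0.099), a call that 5 of 7 other analyses did not make. That call was also lost whichever library was left out. At 11 h CCNG2 was at 8.74 and 7.27 CPM with dex against 13.5 and 13.1 with EtOH (-0.71, adjusted p = 0.0715), which DESeq2 and the analysis of single transcripts did not call. Its interaction with time had an adjusted p of 0.00712. CCNG1, which encodes a cyclin that recruits a phosphatase to MDM2, and ZMAT3, which encodes an RNA-binding protein, were called at 9 h alone, with log2 fold changes of 0.40 and 0.38. CCNG1 was lost without either of 2 libraries. ZMAT3 was lost without any of 3, in DESeq2, among genes with at least 10 counts in every library and in the analysis of single transcripts.

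Of the 3 genes that feed back on p53, 2 were called lower, PPM1D at 5 and 7 h and MDM4 at 7 h, and MDM2 at no time (44.4% of all genes tested were called at 1 or more times). MDM2, the gene of the p53 ubiquitin ligase, ranged from 74.8 to 102 CPM over the dex libraries (median 83.5) and from 72.1 to 108 over the EtOH libraries (median 95.6). Its log2 fold changes ran from -0.18 to -0.02, with standard errors of up to 0.15. Its exons overlap those of the carboxypeptidase M gene and of 2 genes with clone names, and how shared reads were placed is not stated. MDM4, the gene of a partner of MDM2 that binds and inhibits p53, was lower at 7 h alone, at 57.7 and 63.3 CPM with dex against 75.8 and 66.4 with EtOH (log2 fold change -0.23, adjusted p = 0.0902). DESeq2, one fit over 24 libraries and the analysis of single transcripts did not call it, and it was lost whichever library was left out. PPM1D encodes WIP1, a phosphatase that removes the activating phosphates from p53 and its kinases (chromosome 17, 60600183 to 60666280). At 5 h it was at 22.6 and 22.6 CPM with dex and 30.5 and 31.5 CPM with EtOH, with a gap between the groups many times the gap within them (log2 fold change -0.45, SE 0.14, adjusted p = 0.0115). This call was lost in the analysis of single transcripts (-0.38). At 7 h it was at 19.7 and 20.3 against 24.6 and 25.9 CPM (-0.33), and DESeq2 did not call it there, nor was it called with any 1 library left out. At 1 h the difference was as large (17.9 and 14.3 against 22.3 and 25.8 CPM, -0.57) and not called (adjusted p = 0.223).

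Of the 11 genes of apoptosis, 2 were called only higher, 4 only lower and 1 in both directions, and 4 at no time, against the 44.4% of all genes called at 1 or more times. TP53I3 encodes an oxidoreductase linked to reactive oxygen species (chromosome 2, 24077433 to 24085861). At 5 h it was at 90.6 and 98.1 CPM with dex and at 53.4 and 51.0 CPM with EtOH (log2 fold change 0.85, SE 0.11, adjusted p = 4.61e-08). From 3 h on its dex libraries lay between 74.8 and 98.1 CPM, above the highest EtOH library at 60.7. At 1 h the groups nearly touched, with 50.3 and 59.0 CPM with dex against a mean of 49.9 with EtOH. The interaction with time was called (adjusted p = 0.00909) and was lost in 1 of 29 other settings, without dex replicate 1 at 1 h. TP53INP1, which encodes a nuclear stress protein that also takes part in autophagy, was higher for a shorter time. At 3 h it was at 30.1 and 34.6 CPM with dex and at 22.4 and 24.15 CPM with EtOH (log2 fold change 0.48, SE 0.14, adjusted p = 0.0212), and at 5 h the log2 fold change was 0.43. DESeq2 called neither, single transcripts lost the call at 3 h, and both were lost without each of several libraries.

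PMAIP1, which encodes the BH3-only protein NOXA, was called in both directions. At 1 h it was at 36.05 and 31.8 CPM with dex and at 19.2 and 17.5 CPM with EtOH (log2 fold change 0.89, SE 0.15, adjusted p = 0.00312). At 5 h it was at 15.2 and 12.65 CPM with dex and at 20.9 and 24.9 CPM with EtOH (-0.72, SE 0.16, adjusted p = 0.000596). The call at 1 h was lost without EtOH replicate 2, while that at 5 h was kept on leaving out any 1 library. The interaction with time had an adjusted p of 0.00051 and was called in all 29 other settings run. BBC3, which encodes the BH3-only protein PUMA, had few counts. At 5 h there were 9 and 13 with dex and 23 and 29 with EtOH (log2 fold change -0.96, adjusted p = 0.0845), which was not called by DESeq2 or with no filter and which was lost without any of 3 libraries.

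PERP encodes a membrane protein of desmosomes that acts downstream of p53 (chromosome 6, 138088505 to 138107511). At 5 h it was at 165.5 and 168.5 CPM with dex and at 209 and 222 CPM with EtOH (log2 fold change -0.37, SE 0.10, adjusted p = 0.00567), and at 7 h at 172 and 174 against 222 and 223 (-0.35). These changes were small, yet at both times the groups stood apart by more than the gap within either. BAX, whose product permeabilizes the mitochondrial outer membrane, was lower at 5 h (40.5 and 48.3 against 57.8 and 57.5 CPM) and at 9 h (43.9 and 41.8 against 62.7 and 71.9 CPM, log2 fold change -0.63, adjusted p = 0.00423). At 11 h its dex libraries, at 44.5 and 77.3 CPM, lay on both sides of the EtOH libraries. The call of BAX at 5 h was lost in one fit over 24 libraries and whichever library was left out, and that at 9 h without any of 3. AEN, a nuclease gene, was lower at 5 h alone, at 54.4 and 62.6 against 87.05 and 90.1 CPM (log2 fold change -0.60, adjusted p = 4.73e-05). FAS, the gene of a death receptor, ranged from 37.0 to 54.3 CPM with dex and from 42.3 to 60.7 with EtOH and was called at no time, and neither were PHLDA3, TRIAP1 and SPATA18. On the opposite strand, 380 of the 4253 exonic bases of FAS overlap the actin gene ACTA2, which was lower at 7 h (-0.94, adjusted p = 0.0391).

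**Figure D4:**
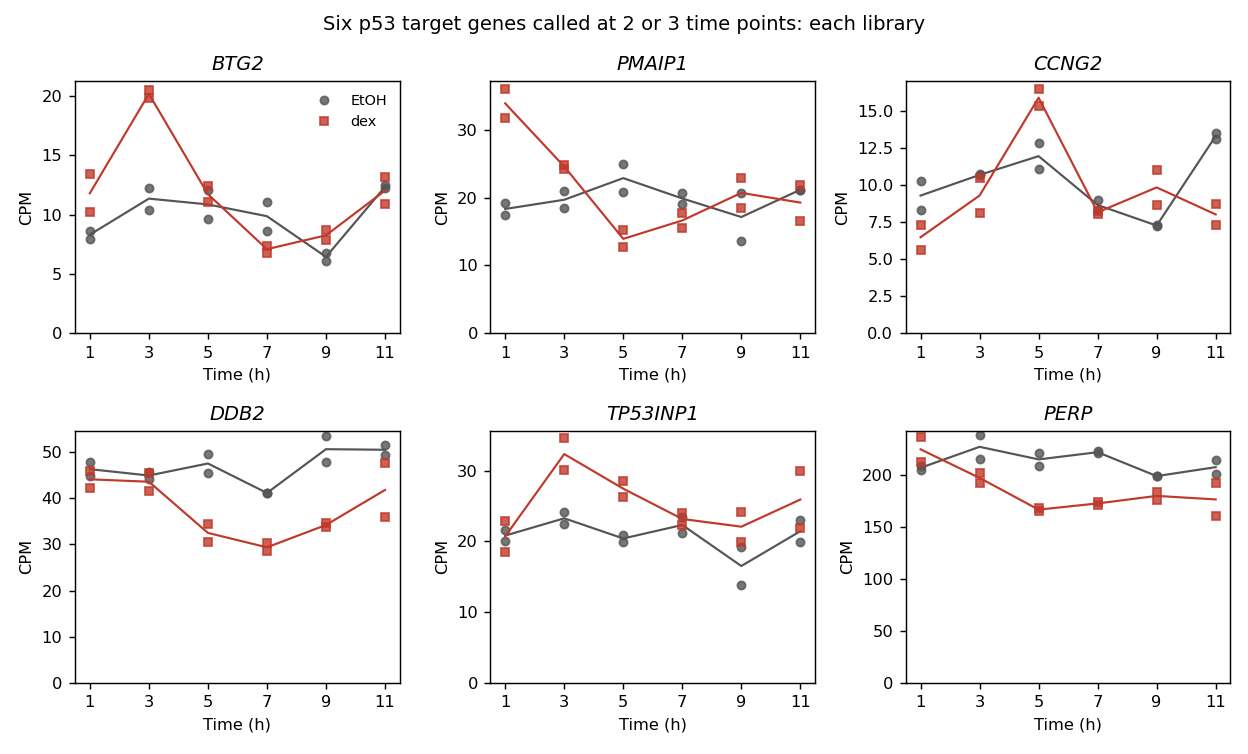
CPM of 6 genes called at 2 or 3 times against time in hours, with 1 point for each library (EtOH grey circles, dex red squares) and lines through the means of 2. PMAIP1 starts above EtOH at 36.05 and 31.8 CPM and lies below it at 5 h, BTG2 is above at 3 h and below at 7 h, and DDB2 and PERP lie below EtOH at 5 and 7 h.

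Among the 4 genes of DNA repair and nucleotide supply, 2 were called only lower and 2 at no time (44.4% of all genes were called at 1 or more times). DDB2 encodes the subunit that recognizes ultraviolet damage in nucleotide excision repair (chromosome 11, 47214465 to 47239240). At 5 h it was at 30.6 and 34.4 CPM with dex and at 45.4 and 49.6 CPM with EtOH (log2 fold change -0.55, SE 0.13, adjusted p = 0.000793). It stayed lower at 7 h (28.5 and 30.2 against 41.1 and 41.2 CPM) and 9 h (33.8 and 34.6 against 47.9 and 53.4 CPM), and all 3 calls were kept in every other analysis and on leaving out any 1 library. At 1 and 3 h the groups overlapped. The interaction with time (adjusted p = 0.0781) was lost in 18 of 29 other settings. RRM2B, which encodes the p53-induced subunit of ribonucleotide reductase, was lower at 3 h (log2 fold change -0.36) and 7 h (-0.25), and both calls were lost in one fit over 24 libraries and whichever of the 4 libraries was left out. DESeq2 and the analysis of single transcripts did not call it at 7 h. XPC, the gene of the other damage sensor of this pathway, and POLH, the gene of a translesion polymerase, were called at no time, with log2 fold changes from -0.34 to 0.16 and from -0.20 to 0.37.

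In the group of metabolism and redox genes, TIGAR, whose product lowers glycolytic flux, was higher at 7 h (90.8 and 95.1 CPM with dex against 66.4 and 83.6 with EtOH, log2 fold change 0.32, adjusted p = 0.0145), a call lost without 3 of the 4 libraries in turn. Its transcript shares 1711 exonic bases with another gene on the same strand. FDXR, the gene of a mitochondrial reductase, was lower at 9 h (12.8 and 12.6 against 17.7 and 21.7 CPM, log2 fold change -0.62, adjusted p = 0.0284), which was lost without any of 3 libraries and in the analysis of single transcripts. SESN1, which encodes an inhibitor of mTORC1, had log2 fold changes between -0.10 and 0.09 and was called at no time.

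The 8 genes called at no time were MDM2, FAS, PHLDA3, TRIAP1, SPATA18, XPC, POLH and SESN1. Over their 48 tests the log2 fold changes ran from -0.34 to 0.37 with standard errors of up to 0.25, 3 tests had an unadjusted p under 0.05 in edgeR, and DESeq2 called 0. These p-values do not show that the levels were equal, and smaller changes than the largest of these were called in other genes of the set, such as MDM4 at 7 h. In bulk RNA, fewer cells of a kind and less RNA per cell cannot be told apart for any of the 30 genes.

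Without dex, the level of some of these genes also moved over the 11 h. The test of time over the 12 EtOH libraries called 9 of the 30 genes, against 3.3% of all genes tested. CDKN1A had the smallest adjusted p (0.0126), with a mean of 58.8 CPM at 7 h and of 98.2 CPM at 11 h (SD 3.29 and 5.01, n = 2). Its means at 1, 3, 5 and 9 h were 59.45, 66.0, 87.5 and 80.0 CPM, so the course was no steady rise. The lowest EtOH mean fell at 7 h, the time of the largest log2 fold change of CDKN1A with dex (1.57). PPM1D followed (adjusted p = 0.0476), and CCNG2, BTG2, MDM4, SESN1, BAX, GADD45A and MDM2 had adjusted p-values between 0.0572 and 0.0955. This count depended on single libraries. It became 18 without EtOH replicate 1 at 9 h, and 1 without EtOH replicate 1 at 7 h or at 11 h. It was 5 without EtOH replicate 1 at 1 h, and 2 without EtOH replicate 1 at 3 h, replicate 1 at 5 h or replicate 2 at 11 h. CDKN1A was called in all 18 settings, while MDM2 was called in 6 of 18.

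The 29 genes listed as upstream regulators of p53, which were sensors, kinases, ligases, cofactors and family members, were measured beside their targets. Of these, 27 were tested. At 1 h edgeR and DESeq2 called 0 of them, and 3 had an unadjusted p under 0.05 in edgeR. Afterwards 3 were higher (8.42% of all genes tested were) and 5 lower (5.65%) at 3 h, 3 (12.4%) and 5 (12.6%) at 5 h, and 4 (14.7%) and 4 (13.5%) at 7 h. At 9 h, 3 were higher (10.8%) and 8 lower (8.95%), and at 11 h 2 (5.8%) and 1 (3.33%). TP63, the family member of basal epithelium, was lower from 3 h on. At 5 h it was at 1.86 and 2.46 CPM with dex against 9.21 and 9.74 with EtOH (-2.13, adjusted p = 2.21e-08). HIPK2, the gene of a kinase that phosphorylates p53, was higher from 3 h on, at 499 and 599 CPM with dex against 145 and 163 with EtOH at 7 h (log2 fold change 1.84, adjusted p = 1.85e-16). CHEK1, the gene of a checkpoint kinase, was lower from 3 to 9 h. Its levels at 5 h were 53.2 and 45.8 CPM with dex and 78.35 and 80.7 CPM with EtOH (-0.68, adjusted p = 8.37e-06).

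**Figure D5:**
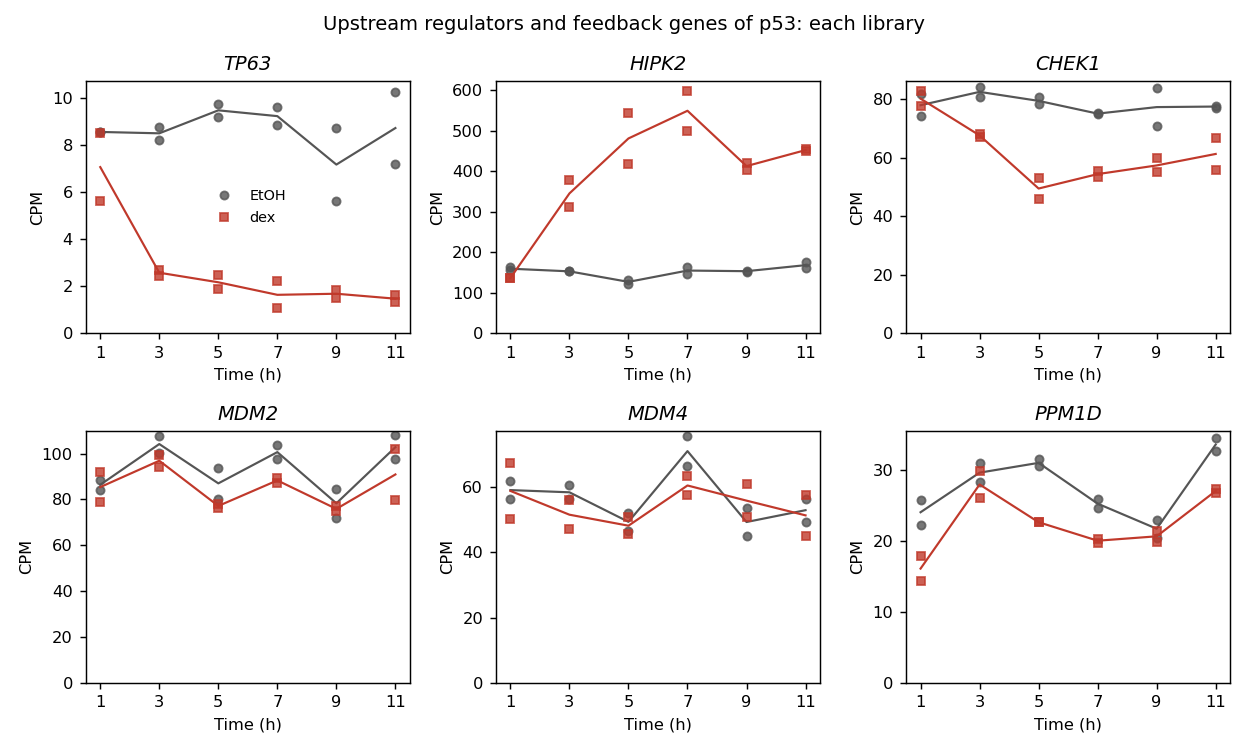
CPM of TP63, the kinase genes HIPK2 and CHEK1 and the negative regulators MDM2, MDM4 and PPM1D against time in hours, with 1 point for each library (EtOH grey circles, dex red squares) and lines through the means of 2. HIPK2 rises to 499 and 599 CPM with dex at 7 h, TP63 falls from 3 h on, CHEK1 lies below EtOH from 3 h on, and the MDM2 and MDM4 groups lie close together.

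Genes of mitosis and replication that p21 is known to lower through the DREAM repressor complex were read as a list of 15, all tested. At 5 h 13 of the 15 were lower (12.6% of all genes tested were), with a median log2 fold change of -0.41 against 0.01 over all genes. At 7 h 9 were lower (13.5% of all genes), with a median of -0.21, and at 9 h 2 were (8.95%), with a median of -0.18. edgeR called 0 at 1, 3 and 11 h, where 2, 1 and 3 of the 15 had an unadjusted p under 0.05, and DESeq2 also called 0 at those times. At 5 h CDK1, the gene of the kinase that drives entry into mitosis, had a log2 fold change of -0.62 (SE 0.10, adjusted p = 5.48e-06), and FOXM1, the gene of a transcription factor of G2 and mitosis, had one of -0.69. PLK1, at -0.23, and CDC20 were not called at 5 h. CDKN1A was already called at 3 h, and the order of these changes carries no test of a link between them.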

How the data were processed

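The authors mapped single-end reads of stranded poly-A libraries to GENCODE transcripts and counted reads per transcript with samtools. The deposited values are raw counts, not divided by depth or length. How reads shared by several transcripts were placed, and whether strand was used, is not given in the sources used here. The treatment text of the labels names 1 h for every library, while the duration used here runs from 1 to 11 h. The study's methods name triplicates, and the labels used here give 2 replicates. The labels name the build hg19, and coordinates printed here are those of GRCh38.

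Of 119207 transcripts, 110261 were matched by identifier without version to GENCODE release 29 and hold 94.1% of the counts. The 8946 unmatched transcripts were left out, and the row of unplaced reads held 0. Counts were summed per gene (33126 genes), filtered with filterByExpr over the 12 groups (15337 genes kept), scaled by TMM and tested at each time, 2 against 2 libraries, with edgeR 4.0.16 (quasi-likelihood F-test, robust) and Benjamini-Hochberg adjustment over all genes tested. For a standard error, each log2 fold change was divided by the root of its F. One fit over 24 libraries gave the interaction of treatment and time, and one over the 12 EtOH libraries the time course. The test was checked on simulated data. R was 4.3.3 and Python 3.11.15, and figures were drawn with matplotlib 3.10.9.

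The 30 genes, the lists and the tests were chosen with earlier results of these data known. All 30 genes are named, with each library's values for those called at 2 or more consecutive times in 1 direction at the time of their largest called change. Other genes come from the lists alone, and library values of further genes were chosen after they were seen. Some genes of these lists are counted but not reported by name here. Alternatives were DESeq2 1.42.0, edgeR with the size factors of DESeq2, all genes unfiltered, at least 10 counts in every library, a threshold of 0.05, a single fit over 24 libraries, a block for the replicate number, the transcript with the smallest combined p in place of each gene, and leaving out each library in a fit over the other libraries, where the lone library is assumed to vary like the other groups.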

Additional observations from a re-analysis of the deposited data

Results flagged for a closer look

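For 10 of the 30 genes the effect of dex differed between the 6 time points by a test of that difference (15.4% of all genes tested passed it), the interaction of treatment and time over 24 libraries (edgeR, quasi-likelihood F-test, Benjamini-Hochberg). The adjusted p was 3.14e-05 for PLK2, whose log2 fold change moved between -1.86 at 3 h and -0.88 at 7 h, and 5.39e-05 for CDKN1A, which moved between 0.32 at 1 h and 1.57 at 7 h. It was 0.00051 for PMAIP1, from 0.89 at 1 h to -0.72 at 5 h, 0.00712 for CCNG2, from 0.43 at 9 h to -0.71 at 11 h, and 0.00874 for BTG2, from 0.82 at 3 h to -0.48 at 7 h. TP53I3 had 0.00909, from 0.12 at 1 h to 0.85 at 5 h, and GDF15 0.00917, from -0.61 at 1 h to -3.68 at 9 h. DDB2 (0.0781), PERP (0.0795) and GADD45A (0.0859) were near the limit and were lost in 18, 15 and 19 of 29 other settings. PERP moved between 0.12 at 1 h and -0.37 at 5 h.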

How the results depend on the processing

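All 56 calls of single genes kept their direction under every alternative. Of these, 34 were also kept by all 7 other analyses and on leaving out each library of the time point: 20 were lost on leaving out at least 1 library and 16 under at least 1 other analysis. DESeq2 lost 12, single transcripts 8, one fit over 24 libraries 5, no filter 2, DESeq2's size factors 1, a minimum of 10 counts 1 of the 50 it could test and the replicate block 0, while the threshold of 0.05 lost 9.

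No count of genes called with dex moved by over 1.5 times under another analysis. Leaving out 1 library gave 2 to 3 called at 1 h (4 with all libraries), 7 at 3 h, 10 to 11 at 5 h, 7 to 9 at 7 h, 6 to 13 at 9 h and 6 to 9 at 11 h. The lone library of a group has no spread of its own in these fits. The number called over time in EtOH was the least stable: 9 became 2 at a threshold of 0.05, 14 with no filter and 1 to 18 without 1 library. The number with an effect that differed between times was 7 to 14 without 1 library, around 10. The causes were not tested.

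The study's methods call the EtOH control paired, while the labels used here give only replicate numbers. Same-numbered libraries did not deviate together at every time (correlations from -0.122 at 3 h to 0.23 at 1 h), so the number was not used to pair them in the main tests. These correlations cannot exclude a pairing. With the replicate block, 6 genes were called at 1 h (4 without it), 13 at 9 h (10 without it) and 7 over time in EtOH (9 without it). Low counts limit GDF15 and BBC3 most.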

Other observations

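Of 36 other reported p53 targets, 35 were in the table and 32 were tested, and calls were made in both directions. At 3 h 6 were higher (8.42% of all genes tested were) and 3 lower (5.65%) with dex, at 5 h 7 (12.4%) and 4 (12.6%), and at 7 h 7 (14.7%) and 7 (13.5%). At 9 h 4 were higher (10.8%) and 1 lower (8.95%), and at 11 h 3 (5.8%) and 2 (3.33%), with a median log2 fold change between -0.03 and 0.07 at every time. DDIT4, which encodes an inhibitor of mTORC1 and is a known GC target, was at 220 and 199 CPM with dex and at 99.1 and 79.85 CPM with EtOH at 5 h (log2 fold change 1.23, SE 0.11, adjusted p = 3.72e-12 in edgeR). THBS1, the gene of the matrix protein thrombospondin, was the only gene of this list called at 1 h (409 and 406 against 290 and 297.5 CPM) and stayed higher at every later time. SFN, which encodes 14-3-3 sigma and holds cells in G2, was higher at 3, 5, 7 and 11 h and not called at 9 h, when its groups overlapped.

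Lower were DRAM1, a gene of autophagy, and CSF1, the gene of a macrophage growth factor. DRAM1 was called from 3 h to 11 h, at a mean of 22.1 CPM with dex against 40.2 with EtOH at 5 h (log2 fold change -0.86, adjusted p = 1.82e-06). CSF1 was lowest at 3 h, at 17.3 and 15.2 against 37.8 and 34.3 CPM (-1.14, adjusted p = 1.01e-06), and was not called at 9 h.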
